A study of Mus musculus with 4 samples.

Results

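The tumour suppressor p53 (gene Trp53), its inhibitors Mdm2 and Mdm4, and 7 of its target genes outside the BCL2 family (Ccng1, Sesn1, Zmat3, Phlda3, Trp53inp1, Gadd45a and Plk2) were followed in leukaemic mouse bone marrow cells. They were taken by name from the deposited table: all 10 were found among its 23240 genes, and all 10 passed the filter on low values (a mean of at least 1 RPKM over the libraries), as did 9595 genes in all. RPKM is a read count scaled to gene length and library depth.

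Bone marrow was taken from leukaemic mice of B6 background, and the cells are labelled as a RUNX1-FLT3ITD AML (acute myeloid leukaemia). Sorting kept GFP+ BFP+ cells without CD11b and Gr1, proteins on the surface of mature myeloid cells. All 4 cultures lasted 22 h, in SFEM medium to which FLT3L, SCF, IL3 and IL11 had been added. Replicate 1 was of genotype Runx1 delta/delta and replicate 2 of genotype Runx1 delta/+; each gave 1 library with 200 nM 4OHT (4-hydroxytamoxifen, the active form of tamoxifen) and 1 with the same volume of its solvent EtOH (ethanol). FLT3-ITD is an activating duplication within the FLT3 receptor, and GFP and BFP are fluorescent reporters; the labels do not say what either reporter marks, which protein 4OHT acts on, or how many mice were used. Genotype, replicate number and any difference between the animals therefore cannot be told apart.

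p53 is a transcription factor that is held at low protein levels in unstressed cells, because Mdm2, a ubiquitin ligase, marks it for destruction and Mdm4, a relative of Mdm2, masks its activation domain. DNA damage and other stresses release p53, which then switches on genes that arrest growth, repair DNA or kill the cell, and also Mdm2, so that the response limits itself. Control is thus largely at the level of the protein, and the transcript of Trp53 is no measure of p53 activity; several targets are also driven by other factors. In blood-forming tissue p53 is known for restraining stem and progenitor cells, and its loss is frequent in some leukaemias.

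Depth recovered from the steps of the RPKM values ran from 33.7 to 39.4 M mapped reads, and the RPKM of all 10 genes gave whole reads in every library. Markers of the labelled cells were uneven: Flt3 (12.6 to 46.3 RPKM), Myb (17.0 to 99.2 RPKM) and Spi1 (3.58 to 21.5 RPKM) were present. Kit, Cd34 and Mpo, which define many myeloid progenitors and blasts, did not exceed 1.61, 0.395 and 0.556 RPKM. The pan-leukocyte gene Ptprc lay between 0.904 and 5.90 RPKM. Of the 4 tested, limma (adjusted p under 0.05) called Myb (log2 change 1.82) and Ptprc (0.73) higher with 4OHT and 0 lower. Between the genotypes Flt3 (log2 difference -1.49) and Ptprc (-1.13) were called lower in Runx1 delta/delta and 0 higher. Itgam, which encodes CD11b, did not exceed 0.358 RPKM. Ly6c2, whose product Gr1 antibodies can bind, had 1.44 to 7.48 RPKM and was higher in Runx1 delta/delta (log2 difference 1.30, limma adjusted p = 0.0378). Red cell genes were abundant and differed between the arms. The 20 marker genes held 13.1% and 8.08% of the summed RPKM of the EtOH libraries (Runx1 delta/delta and Runx1 delta/+). They held 1.06% and 0.782% of the 4OHT libraries, and 19 of the 20 were called lower with 4OHT (limma adjusted p under 0.05). Between the genotypes 8 of these 20 were called higher and 1 lower in Runx1 delta/delta, beside 4.68% and 6.91% of all genes tested. Of 7 platelet genes tested 5 were called lower with 4OHT and 1 higher. Over all genes tested the shares with 4OHT were 10.2% lower and 22.2% higher. The part of these marker differences in the changes given here was not tested. Among markers of other cells, the B cell gene Ms4a1, the T cell gene Cd3e and the endothelial gene Cdh5 were listed at 0 in all libraries. Lck, a kinase of T cells, reached 2.40 RPKM, and Pecam1, which endothelium shares with blood cells, had 2.14 to 12.0 RPKM, rose with 4OHT (log2 change 0.53, limma adjusted p = 0.0429) and was lower in Runx1 delta/delta (log2 difference -1.52, limma adjusted p = 0.0126).

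Gadd45a, Trp53inp1 and Mdm4 fell with 4OHT, and no member rose past the test. Across the 10 genes limma called 3 lower and 0 higher (Benjamini-Hochberg adjusted p under 0.05, treatment and genotype as terms). Of the 9595 genes tested it called 10.2% lower and 22.2% higher. Without adjustment (limma p under 0.05) 3 members were lower and 2, Trp53 and Plk2, higher, beside 4387 of the 9595 genes in either direction. The median log2 change of the 10 was -0.19, against 0.16 over all genes tested. Calls in either direction made up 32.4% of all genes tested, so 3 of 10 is near that background. With median-ratio scaling the split over all genes was 1221 higher and 1325 lower, against 2130 and 983, and the same 3 members were called lower. Log2 changes from limma are on the log2(RPKM + 1) scale, which understates changes of low genes, while folds are ratios of RPKM within a genotype with exact 95% counting intervals from the recovered reads; these cover counting error only. In bulk RNA a lower level can mean fewer cells of a type or less RNA per cell, and these cannot be told apart.

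**Figure D1:**
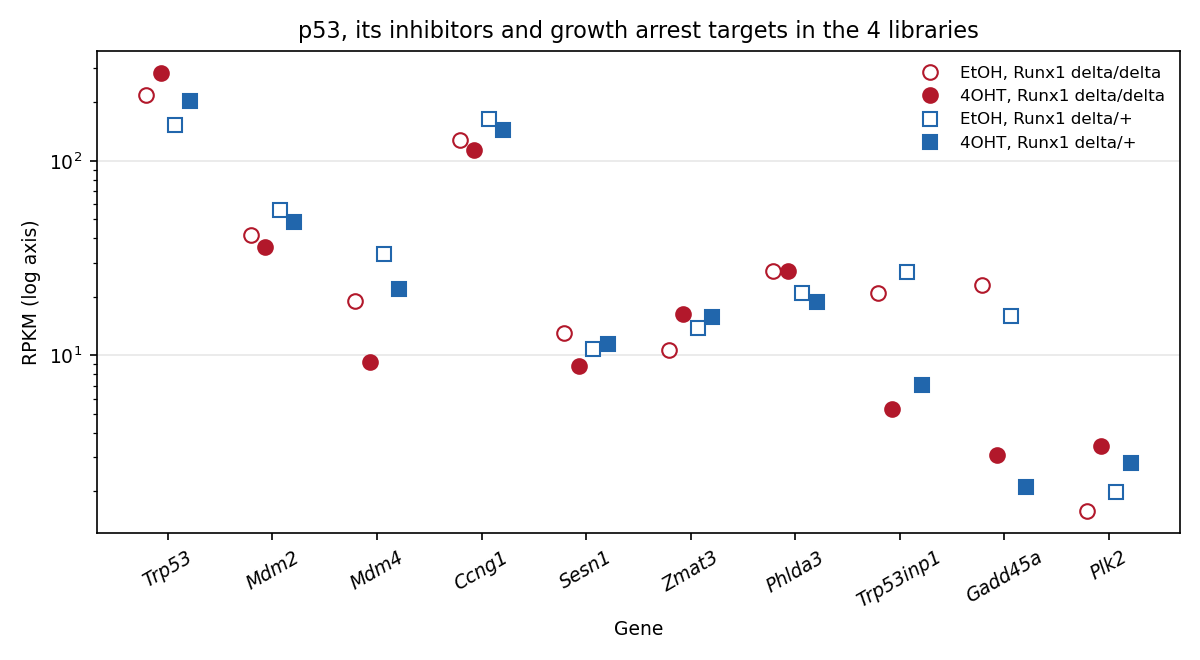
RPKM (log axis) of p53, its inhibitors and its targets in each of the 4 libraries; circles are Runx1 delta/delta, squares Runx1 delta/+, open symbols EtOH and filled symbols 4OHT. Trp53 and Ccng1 are the most abundant in every library, and Gadd45a and Trp53inp1 show the widest gap between open and filled symbols.

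Trp53 itself was among the abundant transcripts. It stood at 219 RPKM (14162 reads) in EtOH and 284 RPKM (19487 reads) in 4OHT of Runx1 delta/delta, and at 153 RPKM (9613 reads) and 202 RPKM (14906 reads) in Runx1 delta/+. In every library it lay between the 96.0th and 97.7th percentile of the genes tested. The 4OHT library was higher within each genotype, but the EtOH library of Runx1 delta/delta lay above the 4OHT library of Runx1 delta/+, so the arms overlapped. The ratio of 4OHT to EtOH was 1.30 (1.27 to 1.32) in Runx1 delta/delta and 1.33 (1.29 to 1.36) in Runx1 delta/+, with a fitted log2 change of 0.39 (SE 0.12) that did not pass (limma adjusted p = 0.0558). Without the genotype term its limma adjusted p was 0.464. Fits without 1 library also had no genotype term. In them the change was 0.13 (without EtOH replicate 2), 0.15 (without 4OHT replicate 1), 0.63 (without 4OHT replicate 2) and 0.65 (without EtOH replicate 1). Part of the genotype difference enters these values by design, so they do not measure how steady the response was. The change depended on scaling. It was 0.18 (SE 0.11, limma adjusted p = 0.283) with median-ratio scaling, which moved the median of all genes from 0.16 to -0.02. In the authors' deposited table, which sets 1 library against 1 library by Kal's Z-test, the corrected p for Trp53 was 0.0103 in replicate 1 and 0.120 in replicate 2. Mouse has a processed copy, Trp53-ps on chromosome 17, and reads that fit both could have been counted here.

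The profile of Trp53 over the 4 libraries was most like those of Rps12, a protein of the small ribosomal subunit (distance 0.0512), Eif4e2, a cap-binding protein (0.0517), and Trak1, a motor adaptor of mitochondria (0.0530). Distance here is the Euclidean distance between log2(RPKM + 1) values centred over the 4 libraries, among genes that average 5 RPKM or more. With 4 libraries many genes share such a profile, so these 3 names are a description only.

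The region around the start of Trp53 is shown because Trp53 is the hub of the 10 genes. It is RefSeq's promoter window, 250 bases before to 50 after the start, on the plus strand of GRCm38.p6 at chr11:69580109-69580408, a later build than the mm9 of the deposited values. Capitals mark, in order, a p53 decamer (one unit of the sequence that p53 binds in pairs), a CCAAT box read on the other strand (ATTGG) and an E box (CACGTG).
Trp53: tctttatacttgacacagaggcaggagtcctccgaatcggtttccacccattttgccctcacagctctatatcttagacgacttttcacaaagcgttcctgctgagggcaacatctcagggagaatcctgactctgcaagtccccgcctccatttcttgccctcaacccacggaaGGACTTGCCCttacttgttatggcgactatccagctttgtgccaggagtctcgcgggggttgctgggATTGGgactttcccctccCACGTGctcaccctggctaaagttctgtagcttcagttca
The E box was found in 7.15% of 32851 promoter windows, searched on both strands like all motifs here, and 1 of the 10 windows of these genes held it. E boxes are bound by MYC and its relatives among others, and CCAAT boxes by NF-Y; a match of letters is a description and not a bound site.

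Mdm2, the ligase that destroys p53 and itself a p53 target, was lower with 4OHT by a small and nearly equal ratio in both genotypes, without passing the test. It had 41.5 RPKM (4343 reads) in EtOH and 36.1 RPKM (4016 reads) in 4OHT of Runx1 delta/delta, and 55.9 RPKM (5709 reads) and 48.2 RPKM (5754 reads) in Runx1 delta/+. The ratios of 4OHT to EtOH were 0.871 (0.834 to 0.909) and 0.862 (0.831 to 0.894). The fitted log2 change was -0.20 (SE 0.13, limma adjusted p = 0.283), with a 95% interval of the fit from -0.53 to 0.13, and -0.40 with median-ratio scaling (SE 0.12, limma adjusted p = 0.0723). Both Runx1 delta/delta libraries lay below both Runx1 delta/+ libraries.

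Mdm4 fell with 4OHT, and it was the only one of the 10 genes called in both comparisons. It had 19.2 RPKM (2312 reads) in EtOH and 9.29 RPKM (1191 reads) in 4OHT of Runx1 delta/delta, and 33.2 RPKM (3903 reads) and 21.9 RPKM (3009 reads) in Runx1 delta/+. Every step is in the same direction within a genotype, but the arms overlapped, since EtOH of Runx1 delta/delta lay below 4OHT of Runx1 delta/+. The fall was 2.06-fold (1.92 to 2.21) in Runx1 delta/delta and 1.52-fold (1.45 to 1.59) in Runx1 delta/+, with a log2 change of -0.77 (SE 0.16, limma adjusted p = 0.0195). The call was lost without the genotype term (no replicate block, limma adjusted p = 0.368). It was also lost without any 1 of the 4 libraries, each of these fitted without the genotype term (log2 change from -1.35 to -0.20). Part of the genotype difference enters that range by design. In the authors' deposited table the corrected p for Mdm4 was 0.873 in replicate 1 and 1 in replicate 2. A pseudogene named Mdm4-ps lies on chromosome X, and a pseudogene and a long non-coding RNA overlap the Mdm4 span in RefSeq, so some reads could belong to those.

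RefSeq gives Mdm4 a pair of starts, and the window of the upstream one is shown because it holds the RUNX motif TGTGGT while the other window held none of the motifs searched. It lies on the minus strand of GRCm38.p6 at chr1:133030538-133030837, and capitals mark the motif, which begins 9 bases after the start.
Mdm4: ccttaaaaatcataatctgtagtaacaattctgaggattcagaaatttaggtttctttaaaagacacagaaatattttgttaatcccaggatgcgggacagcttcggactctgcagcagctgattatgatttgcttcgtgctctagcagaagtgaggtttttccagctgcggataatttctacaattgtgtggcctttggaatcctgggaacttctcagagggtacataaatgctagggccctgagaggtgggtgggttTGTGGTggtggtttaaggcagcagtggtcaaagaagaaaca
The RUNX motif, the core bound by RUNX1, was found on either strand in 16.8% of all 32851 windows and in 2 of the 10 windows of these genes, those of Mdm4 and Ccng1.

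The balance between p53 and its inhibitors differed between the libraries as levels per length. For each RPKM of Mdm4 there were 2.17 RPKM of Mdm2 in EtOH and 3.89 in 4OHT of Runx1 delta/delta, and 1.69 and 2.20 in Runx1 delta/+. The ratio of Trp53 to Mdm4 was 11.4 in EtOH and 30.6 in 4OHT of Runx1 delta/delta, and 4.602 and 9.26 in Runx1 delta/+. The ratio of Trp53 to Mdm2 was 5.28 and 7.86 in Runx1 delta/delta, and 2.73 and 4.198 in Runx1 delta/+. All 3 ratios were higher in 4OHT than in EtOH within each genotype and higher in Runx1 delta/delta than in Runx1 delta/+ within each arm. The ratio of Trp53 to Mdm4 is the product of the other ratios, so the 3 are not separate observations. They are ratios of transcripts, with no test, and restate the levels given above.

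Gadd45a, a stress-induced protein that inhibits the mitotic kinase CDK1 and takes part in DNA repair, had the largest change of the 10. It had 23.0 RPKM (972 reads) in EtOH and 3.09 RPKM (139 reads) in 4OHT of Runx1 delta/delta, and 16.0 RPKM (660 reads) and 2.11 RPKM (102 reads) in Runx1 delta/+. Both 4OHT libraries lay far below both EtOH libraries. The fall was 7.43-fold (6.21 to 8.94) in Runx1 delta/delta and 7.56-fold (6.13 to 9.41) in Runx1 delta/+, and the log2 change of -2.50 (SE 0.14, limma adjusted p = 0.00176) ranked 103 by size among the 9595 genes. In the authors' deposited table the corrected p was 0.00683 in replicate 1 and 0.0697 in replicate 2. The call was lost without EtOH replicate 1 (log2 change -2.25, limma adjusted p = 0.103, no genotype term). A long non-coding RNA, E230016M11Rik, overlaps the Gadd45a span in RefSeq and did not exceed 0.421 RPKM.

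Of the genes whose profiles were most like that of Gadd45a, B4galt1, a galactosyltransferase, lay at a distance of 0.108 and 5033406O09Rik at 0.164. B4galt1 had 16.8 RPKM in EtOH and 2.36 RPKM in 4OHT of Runx1 delta/delta, against 12.1 and 1.47 in the other genotype. Gadd45a changed beside the red cell markers, of which 19 of 20 were called lower. The median log2 change of the 20 was -2.72.

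The promoter window of Gadd45a is shown because this gene changed most. It lies on the minus strand of GRCm38.p6 at chr6:67037358-67037657. Capitals mark, in order, an octamer (ATTTGCAT), a CCAAT box, the same octamer read on the other strand (ATGCAAAT) and a p53 decamer.
Gadd45a: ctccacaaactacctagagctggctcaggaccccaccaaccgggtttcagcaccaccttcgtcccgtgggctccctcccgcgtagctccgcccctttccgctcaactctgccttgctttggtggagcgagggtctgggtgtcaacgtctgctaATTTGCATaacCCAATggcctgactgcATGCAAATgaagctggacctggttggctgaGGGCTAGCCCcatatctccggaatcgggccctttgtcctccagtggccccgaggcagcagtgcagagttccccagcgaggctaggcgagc
The octamers begin 97 and 70 bases before the start, on either side of the CCAAT box, which begins 86 bases before it. An octamer on either strand was found in 1.74% of all windows, a CCAAT box in 37.4% and a p53 decamer in 8.36%. In human cells octamer and CCAAT sites of the GADD45A promoter are known to take part in p53-independent induction, and the p53 site known best in this gene lies within an intron, outside the window. A promoter window was found for 8 of the 10 genes, 10 windows in all; 5 of these held a p53 decamer, 6 a CCAAT box, 1 a cyclic AMP response element (TGACGTCA, in Plk2, against 1.79% of all windows) and 0 the GATA motif AGATAA (11.2% of all windows).

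Trp53inp1, a nuclear stress protein that promotes p53 phosphorylation and also takes part in autophagy, fell nearly alike in both genotypes. It had 20.9 RPKM (3926 reads) in EtOH and 5.33 RPKM (1063 reads) in 4OHT of Runx1 delta/delta, and 26.9 RPKM (4932 reads) and 7.03 RPKM (1504 reads) in Runx1 delta/+. Both 4OHT libraries lay below both EtOH libraries. The fall was 3.92-fold (3.66 to 4.201) and 3.83-fold (3.62 to 4.06), with a log2 change of -1.79 (SE 0.14, limma adjusted p = 0.00284). The call was lost without EtOH replicate 1, 4OHT replicate 1 or EtOH replicate 2, each fitted without the genotype term (limma adjusted p from 0.0607 to 0.111), while the log2 change stayed between -1.97 and -1.62. In the authors' deposited table the corrected p for Trp53inp1 was 0.0870 in replicate 1 and 0.0477 in replicate 2.

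Plk2, a polo-like kinase of the G1 phase and centriole duplication, was the lowest of the 10 genes on average and stood higher in 4OHT. It had 1.58 RPKM (153 reads) in EtOH and 3.44 RPKM (354 reads) in 4OHT of Runx1 delta/delta, and 1.98 RPKM (187 reads) and 2.81 RPKM (310 reads) in Runx1 delta/+. Both 4OHT libraries lay above both EtOH libraries, and the ratios were 2.18 (1.80 to 2.65) and 1.42 (1.18 to 1.71). The log2 change of 0.57 (SE 0.19) did not pass (limma adjusted p = 0.0708).

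Zmat3, a zinc finger protein that binds RNA and regulates splicing downstream of p53, was likewise higher in both 4OHT libraries than in both EtOH libraries, without a call. It had 10.6 RPKM (2866 reads) in EtOH and 16.3 RPKM (4654 reads) in 4OHT of Runx1 delta/delta, and 13.8 RPKM (3631 reads) and 15.8 RPKM (4837 reads) in Runx1 delta/+. The ratios were 1.53 (1.46 to 1.60) and 1.14 (1.09 to 1.19), and the log2 change was 0.37 (SE 0.16, limma adjusted p = 0.129), or 0.18 with median-ratio scaling (limma adjusted p = 0.418). Groups that did not overlap were seen for 2 members above and 2 below with 4OHT, beside 38.4% and 16.9% of all genes tested.

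Ccng1, cyclin G1, which recruits a phosphatase to Mdm2 and is among the most widely used readouts of p53, was abundant, with small ratios alike in both genotypes. It had 129 RPKM (15528 reads) in EtOH and 113 RPKM (14518 reads) in 4OHT of Runx1 delta/delta, and 164 RPKM (19297 reads) and 144 RPKM (19735 reads) in Runx1 delta/+. The ratios of 4OHT to EtOH were 0.881 (0.861 to 0.901) and 0.875 (0.858 to 0.892), and the log2 change of -0.19 (SE 0.12, limma adjusted p = 0.286; 95% interval of the fit -0.49 to 0.12) did not pass, nor did the -0.39 found with median-ratio scaling (SE 0.12, limma adjusted p = 0.0673). These ratios lie close to those of Mdm2, the other classical target. In the values as deposited the ratio of Ccng1 to Mdm2 stayed between 2.93 and 3.14 in all 4 libraries.

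Phlda3, a pleckstrin homology protein that competes with the kinase AKT at the membrane, had 27.0 RPKM (1370 reads) in EtOH and 27.1 RPKM (1461 reads) in 4OHT of Runx1 delta/delta, and 20.8 RPKM (1029 reads) and 18.8 RPKM (1086 reads) in Runx1 delta/+. Its fitted change was the smallest of the 10 as deposited (log2 change -0.07, SE 0.14, limma adjusted p = 0.735; 95% interval of the fit -0.41 to 0.28). With median-ratio scaling it was -0.26, and the changes of Zmat3 and Trp53, both 0.18, were smaller. Sesn1, sestrin 1, which restrains the growth kinase mTORC1, had 13.1 RPKM (1513 reads) in EtOH and 8.77 RPKM (1076 reads) in 4OHT of Runx1 delta/delta, and 10.8 RPKM (1218 reads) and 11.5 RPKM (1507 reads) in Runx1 delta/+. As deposited it was lower with 4OHT in Runx1 delta/delta, while in Runx1 delta/+ the ratio was 1.06 (0.981 to 1.14); with median-ratio scaling it was lower in both. No call was made (log2 change -0.23, SE 0.19, limma adjusted p = 0.392), nor with median-ratio scaling (-0.42, SE 0.20, limma adjusted p = 0.181).

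**Figure D2:**
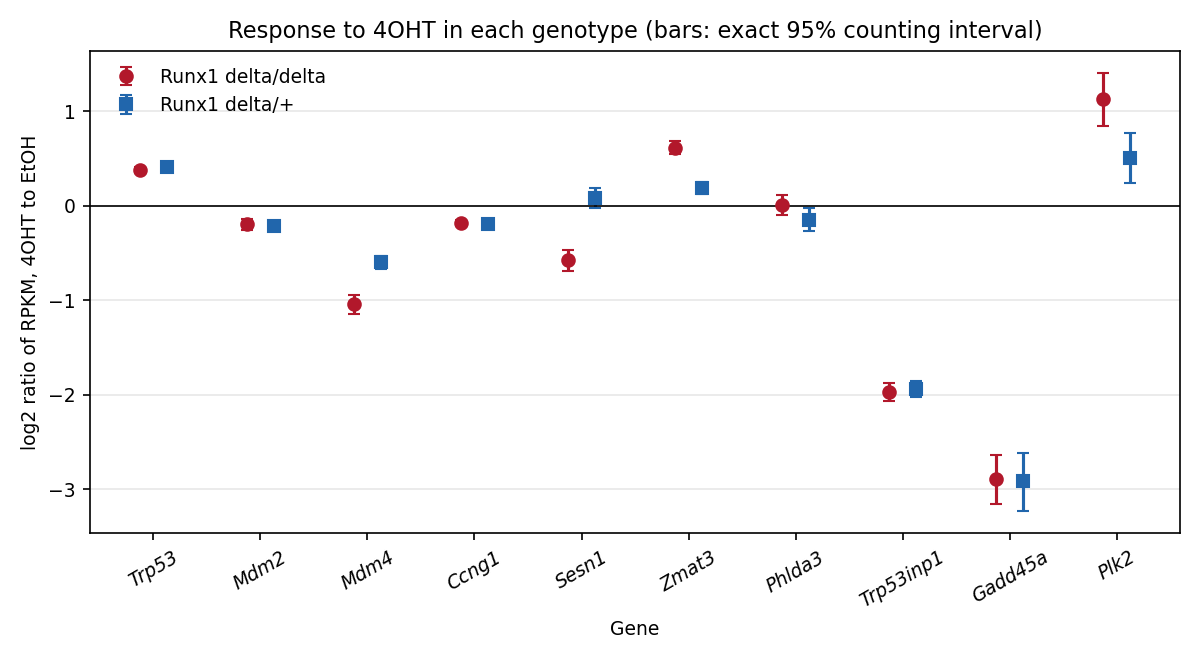
Log2 ratio of RPKM in 4OHT to RPKM in EtOH for each gene, within Runx1 delta/delta (circles) and Runx1 delta/+ (squares); bars are exact 95% counting intervals and each point compares 1 library with 1 library. Gadd45a and Trp53inp1 lie lowest and alike in both genotypes, while Mdm4, Sesn1, Zmat3 and Plk2 lie further apart between the genotypes.

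For 8 of the 10 genes, all but Sesn1 and Phlda3, the ratio lay on the same side of 1 in both genotypes. With median-ratio scaling it did so for all 10, with log2 ratios of -0.81 and -0.10 for Sesn1 and of -0.22 and -0.33 for Phlda3, Runx1 delta/delta first. The response of Runx1 delta/delta minus that of Runx1 delta/+ was also taken, as log2 ratios of RPKM as deposited. It was within 0.04 of zero for Trp53 (-0.03), Mdm2 (0.01), Ccng1 (0.01), Trp53inp1 (-0.03) and Gadd45a (0.03). It was larger for Plk2 (0.62), Zmat3 (0.42), Mdm4 (-0.44) and Sesn1 (-0.66). Median-ratio scaling shifts all these differences by the same amount, and takes those of Trp53 and Trp53inp1 past 0.04. With 1 library per genotype and arm no degree of freedom remains for a test of these differences.

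The comparison of Runx1 delta/delta with Runx1 delta/+ asks which genes differed between the genotypes over both arms, with 2 libraries each. These are the EtOH and the 4OHT library of 1 replicate number and not independent replicates of a genotype. A difference called here may therefore be one between the replicates. Mdm4 was lower in Runx1 delta/delta, 1.73-fold (1.64 to 1.82) in EtOH and 2.35-fold (2.20 to 2.52) in 4OHT (log2 difference -0.96, SE 0.16, limma adjusted p = 0.0305), and no other member passed. The 1 member called lower and 0 called higher stand beside 6.91% and 4.68% of all genes tested. Without adjustment (limma p under 0.05) 4 members were lower and 3 higher, beside 3114 of the 9595 genes in either direction. Trp53 went the other way without a call: it was 1.44-fold (1.40 to 1.47) higher in Runx1 delta/delta in EtOH and 1.40-fold (1.37 to 1.43) higher in 4OHT (log2 difference 0.50, SE 0.12, limma adjusted p = 0.0533). The Mdm4 call was lost with no filter on low values (limma adjusted p = 0.0694), with the trend of GC content and length removed (limma adjusted p = 0.0705) and without any 1 of the 4 libraries, then fitted without the treatment term (limma adjusted p from 0.698 to 0.9997).

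Mdm2 and Ccng1 were lower in both Runx1 delta/delta libraries than in both Runx1 delta/+ libraries (log2 differences -0.42 and -0.34, SE 0.13 and 0.12), and Phlda3 was higher (0.43, SE 0.14), each without a call. With the trend of GC content and length removed the difference was -0.37 for Mdm2, -0.037 for Ccng1 and 0.15 for Phlda3. With Trp53 and Mdm4 this makes 2 genes above and 3 below whose genotypes did not overlap, beside 17% and 21.4% of all genes tested. Gadd45a had log2 difference 0.44 (SE 0.14) and Trp53inp1 -0.35 (SE 0.14), without a call, while Zmat3 (-0.15), Sesn1 (-0.05) and Plk2 (0.01) lay within their standard errors of zero. The labels name a pair of library kits without saying which library had which.

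**Figure D3:**
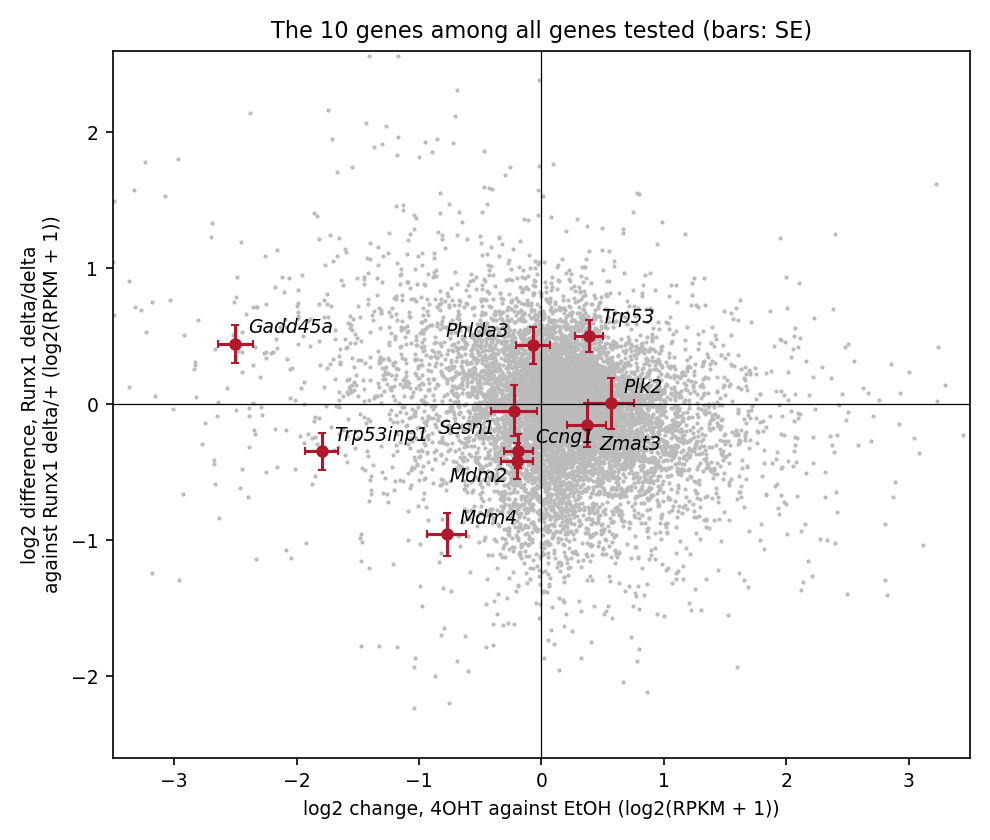
Each grey point is 1 of 9595 genes, with its log2 change with 4OHT on the horizontal axis and its log2 difference between Runx1 delta/delta and Runx1 delta/+ on the vertical axis; the 10 genes are named, with bars of 1 SE, and 43 genes lie outside the axes. Mdm4 stands at -0.77 and -0.96, Trp53 at 0.39 and 0.50, and Gadd45a furthest to the left at -2.50.

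Other p53 targets outside the BCL2 family moved in both directions with 4OHT. Of 30 listed genes 27 passed the filter, and 8 rose, 2 fell and 17 were not called, beside 22.2% higher and 10.2% lower of all genes tested, with a median log2 change of 0.02 against 0.16 over all genes. Perp, a desmosomal membrane protein that mediates p53-dependent death, rose from 0.228 RPKM in EtOH to 9.82 RPKM in 4OHT with Runx1 delta/delta and from 1.37 to 13.5 in the other genotype (log2 change 2.87, SE 0.19, limma adjusted p = 0.00216). Tigar, a phosphatase that lowers glycolysis, rose by 1.28 on the log2 scale, the DNA damage sensor gene Xpc by 1.23 and the TRAIL receptor gene Tnfrsf10b by 1.10. The kinase gene Plk3 and the 14-3-3 protein gene Sfn rose by 0.74 and 0.70, and the nuclease gene Aen and Bloc1s2 by 0.57 and 0.52. These last 4 did not pass with median-ratio scaling, under which 4 of the list rose and 5 fell. Without the genotype term 1 of the list rose, Perp, and 0 fell.

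The falls in that list were large. Gdf15, a secreted stress cytokine, had 8.56 RPKM in EtOH and 0.929 RPKM in 4OHT of Runx1 delta/delta, and 5.01 RPKM in EtOH and 0.140 RPKM in 4OHT of the other genotype (log2 change -2.35, SE 0.17, limma adjusted p = 0.00233). Btg2, an antiproliferative protein that recruits deadenylases to mRNA, had 56.0 RPKM in EtOH and 7.70 RPKM in 4OHT of Runx1 delta/delta, against 20.0 and 6.49 in the other genotype (log2 change -2.10, SE 0.30, limma adjusted p = 0.00799). Cdkn1a, the CDK inhibitor p21 and the best known arrest target of p53, had 247 RPKM in EtOH and 196 RPKM in 4OHT of Runx1 delta/delta, against 223 and 163 in Runx1 delta/+. As deposited it did not pass (log2 change -0.39, SE 0.12, limma adjusted p = 0.0585). Whether it was among the 5 of the list called lower with median-ratio scaling is not given here.

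**Figure D4:**
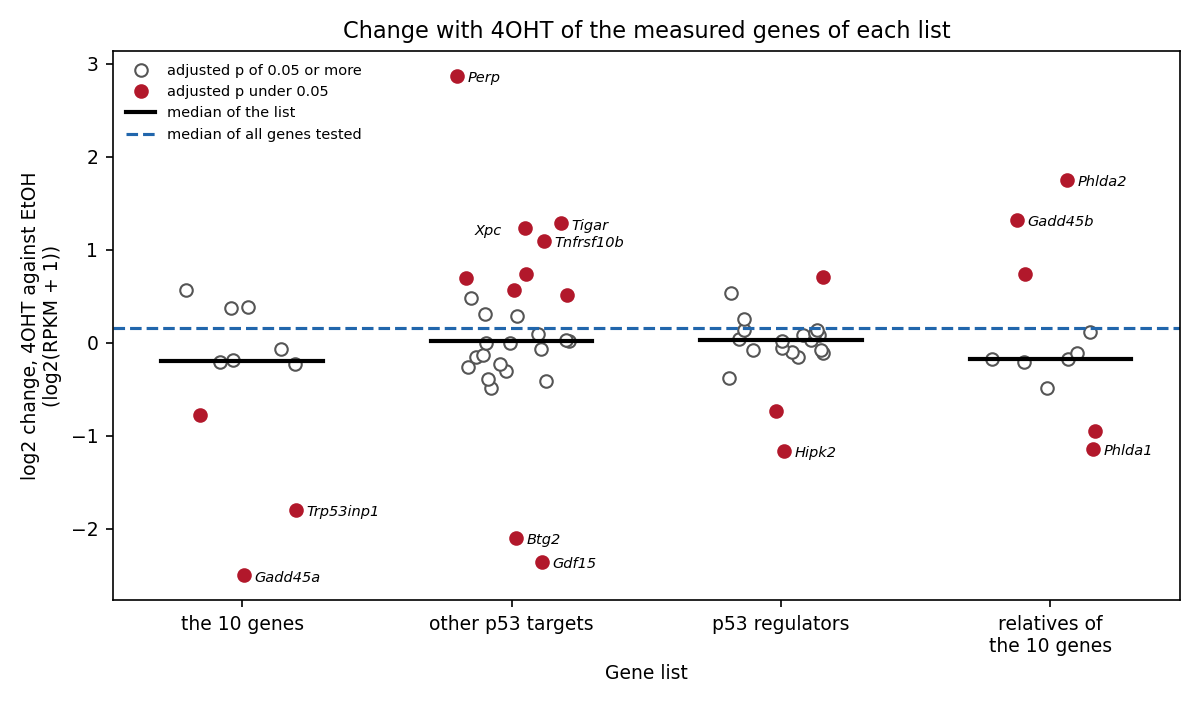
Log2 change with 4OHT on the log2(RPKM + 1) scale for each measured gene of 4 lists (vertical axis); filled points passed the limma threshold, black lines are list medians and the dashed line is the median of all genes tested, 0.16. Perp (2.87) is highest, and Gadd45a (-2.50), Gdf15 (-2.35) and Btg2 (-2.10) are lowest.

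Upstream regulators of p53 included 3 called genes. Of 20 listed kinases, ligases, acetylases and other regulators, all 20 passed the filter, 1 rose, 2 fell and 17 were not called. Over all genes tested 22.2% were higher, 10.2% lower and 6482 of 9595 not called. The median log2 change of the 20 was 0.03, against 0.16 over all genes. Hipk2, a kinase that phosphorylates p53, fell to 35.6 RPKM from 75.8 in Runx1 delta/delta and to 16.8 RPKM from 41.2 in the other genotype (log2 change -1.16, SE 0.14, limma adjusted p = 0.00597). Chek2, the checkpoint kinase that phosphorylates p53 after DNA breaks, fell by 0.73 on the log2 scale, and Usp10, which removes ubiquitin from p53, rose by 0.70. None of these 3 was called without the genotype term. Cdkn2a, which encodes the Mdm2 inhibitor ARF among others, had 29.5 RPKM in EtOH and 37.2 RPKM in 4OHT of Runx1 delta/delta, against 21.2 and 13.3 in the other genotype (log2 change -0.16, SE 0.25, limma adjusted p = 0.658).

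Relatives of the members within their families did not move as one. Of 15 listed, 11 passed the filter, 3 rose and 2 fell (median log2 change -0.18), beside 22.2% higher and 10.2% lower of all genes tested. Plk3 and Sesn2 are also in the list of other p53 targets, so the rise of Plk3 is counted in both lists. Gadd45b rose to 3.96 RPKM from 0.731 in Runx1 delta/delta and to 2.52 RPKM from 0.609 in the other genotype (log2 change 1.32, SE 0.19, limma adjusted p = 0.00861), while Gadd45g was not called and Gadd45a fell. Phlda2 rose by 1.75 and Phlda1 fell by 1.14 on the log2 scale beside an uncalled Phlda3, Ccng2 fell by 0.94 beside an uncalled Ccng1, and Plk3 rose by 0.74. These directions held with median-ratio scaling, with Plk3 no longer called. Without the genotype term Phlda2 alone of these 5 was called (limma adjusted p = 0.0434), and the others had limma adjusted p from 0.0747 to 0.211. The other p53 family genes were at or near 0, with at most 0.00450 RPKM for Trp63 and 0.0102 RPKM for Trp73.

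Between the genotypes 0 of the 27 other p53 targets tested were higher and 2 lower in Runx1 delta/delta. Over all genes tested the shares were 4.68% higher and 6.91% lower. The 2 were the polymerase gene Polk (log2 difference -0.93, SE 0.15, limma adjusted p = 0.0290) and the repair nuclease gene Ercc5 (-0.64). At an unadjusted p under 0.05 limma calls 3114 of all 9595 genes between the genotypes, against 1112 after adjustment (11.6%). Of the 20 regulators tested 3 were called higher, Hipk2, Rpl11 and Crebbp (0.95, 0.69 and 0.63), and 2 lower, Atr and Rpl5 (-0.75 and -0.51). The ribosomal proteins Rpl5 and Rpl11, which bind Mdm2, have many processed copies and their values are uncertain. Of the 11 relatives tested 1 was called higher, Gadd45g (1.36), and 1 lower, Ccng2 (-0.75), in Runx1 delta/delta. Of these 9 genes Gadd45g alone was still called with the trend of GC content and length removed.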

How the data were processed

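RNA of sorted cells was measured in 4 libraries, made with TruSeq or NEBNext kits per the labels' protocols. The build is mm9 per the submitters' processing notes; no source used here gives the aligner, the counting rule, the annotation or the use of strand. Per the file headers, the authors deposited RPKM per gene and, for each replicate number, a p-value, a corrected p-value and a signed fold of proportions from Kal's Z-test of 1 library against 1.

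Library totals were recovered from the RPKM steps, as the total shared by 140 of 601 genes with a single annotated transcript, and each member's reads from the smallest length giving whole reads in all libraries (tolerance 0.02 reads). limma 3.58.1 (R 4.3.3, trended prior, two-sided) was fitted to log2(RPKM + 1) of 9595 genes, with treatment and genotype as terms and 1 residual degree of freedom (4.38 more from the prior); it was tested on simulated data. No label calls the cultures independent. With 1 library per genotype and arm, the residual of this fit is how far the responses to 4OHT differ between the genotypes. The p-values rest on that difference and on the spread pooled over genes, which may be technical. No spread between replicate cultures or independent animals of a genotype was measured. Same-numbered libraries share a genotype, and their deviations from the arm means correlated at 0.664. Intervals of ratios are Clopper-Pearson, conditional on the summed reads (scipy 1.17.1). Alternatives changed the pseudocount (0.1), the filter (none, or 5 RPKM), the scaling, the genotype term, the libraries and, added after seeing the data, the trend of GC content and length (known for 8677 genes, 90.4%).

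The members and lists were chosen with earlier results of these data known, and the motifs after the promoter windows (RefSeq) had been seen. All members are named, and from each list up to 6 called genes with the largest change per comparison; Sfn, Aen, Bloc1s2, Cdkn1a, Cdkn2a, Gadd45g with 4OHT, Trp63, Trp73, the cell markers and, among the targets, Plk3 were named after their values were seen. Among the listed genes and markers 5 matched through older symbols and Ly6g did not match. A further gene named by the rule on like profiles is not reported here.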

Additional observations from a re-analysis of the deposited data

Results flagged for a closer look

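Sesn1 and Phlda3 had 4OHT ratios of opposite sign in the 2 genotypes, each from 1 library per arm, and the difference was not tested. For Sesn1 the ratio of 4OHT to EtOH was 0.670 (exact 95% counting interval 0.619 to 0.725) in Runx1 delta/delta and 1.06 (0.981 to 1.14) in Runx1 delta/+, a difference of -0.66 on the log2 scale. For Phlda3 the ratios were 1.004 (0.932 to 1.08) and 0.903 (0.828 to 0.984), a difference of 0.15. With median-ratio scaling the opposite signs were gone: the log2 ratios were -0.81 and -0.10 for Sesn1 and -0.22 and -0.33 for Phlda3.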

How the results depend on the processing

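The 3113 genes called for 4OHT became 2209 to 2991 under the other pseudocount, either filter, median-ratio scaling and the GC and length correction, each with 3 members called lower. With no replicate block 233 were called, all among the 3113, and 2 members; without 1 library (no genotype term) 3 to 245 genes and 0 to 2 members were. Between the genotypes, 1112 genes became 965 with the other pseudocount, 845 with median-ratio scaling, 646 with a mean of at least 5 RPKM, 207 once the GC and length trend was removed, and 0 with no filter (3906 at an unadjusted p under 0.05 in limma). Members called lower there were 0 with no filter, 0 with GC and length removed, and 0 without any 1 library, where 0 genes passed at all (169 to 627 unadjusted). Those fits had no treatment term. Uncalled genotype differences turned sign for Plk2 (-0.013 with pseudocount 0.1, -0.026 with GC and length removed), Sesn1 (0.0050 with median-ratio scaling) and Trp53inp1 (0.070 with GC and length removed); the cause was not tested. Without 1 library the 4OHT change ran from -0.41 to 0.0092 for Mdm2 and from -0.32 to 0.19 for Phlda3. The genotype difference ran from -0.31 to 0.22 for Sesn1, -0.44 to 0.13 for Zmat3 and -0.39 to 0.40 for Plk2. It ran from -1.25 to 0.55 for Trp53inp1 and -0.83 to 1.72 for Gadd45a. Each of these fits lacked the other term, so part of the other difference enters these ranges by design. They do not measure how steady a difference was. The ratio of Runx1 delta/delta to Runx1 delta/+ was 1.435 in EtOH and 1.462 in 4OHT for Gadd45a. For Trp53inp1 it was 0.776 in EtOH and 0.758 in 4OHT. Plk2 did not pass the filter of 5 RPKM. With 1 library per genotype and arm, differences between genotypes rest on single cultures, and the 102 to 354 reads of Gadd45a in 4OHT and of Plk2 limit their ratios.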
